A study of Mus musculus with 10 samples.

Results

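The genes of the endoplasmic reticulum (ER) folding machinery and of the unfolded protein response, 40 in number, were followed in mouse microglia after a systemic dose of bacterial lipopolysaccharide (LPS). They were taken by gene symbol, and all 40 were found among the 40789 genes of the count table. They fall into 5 roles, namely 11 chaperones and secreted ER factors, 6 disulfide isomerases and oxidases, 7 genes of ER-associated degradation, 10 genes of protein translocation and signal peptide removal, and 6 sensors and transcription factors. The study set LPS against saline to describe the reaction of microglia in individual mice.

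The LPS group was 5 mice given LPS intraperitoneally at 4 mg/kg. The saline group was 5 mice injected with saline. All 10 mice were females of 2 to 3 months on the C57BL6/J background, all carried 1 egfp reporter allele in the Cx3cr1 locus (CX3CR1+/egfp), and all were killed 24 h after injection. Cells from the cortex of perfused mice were enriched on a Percoll gradient and sorted for high GFP. Each mouse gave 1 RNA-seq library, so each replicate is a separate animal. The sort selects on use of the Cx3cr1 locus, which some blood monocytes also use.

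Proteins bound for the secretory pathway enter the ER through the Sec61 channel, lose their signal peptide, and are folded there by chaperones and disulfide isomerases, while those that fail are pulled back to the cytosol and degraded. When unfolded protein accumulates, the sensors Ern1 (IRE1), Atf6 and PERK start the unfolded protein response, which raises transcription of this machinery through spliced Xbp1, cleaved Atf6 and Atf4. Cells that secrete heavily, such as plasma cells, carry high levels of it, and activated microglia secrete cytokines and complement proteins. Splicing of Xbp1, cleavage of Atf6 and phosphorylation of eIF2 are not seen in gene-level counts.

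The libraries held 12928007 to 15332121 counts in LPS mice and 11577295 to 15274421 counts in saline mice. Levels are given as CPM, the counts of a gene per 1000000 counts of the scaled library. A gene is said to have risen or fallen where the adjusted p of edgeR's quasi-likelihood test, taken over 13793 tested genes, was below 0.05. Of 10 microglia markers, 6 fell and 0 rose in LPS mice (0 higher also at an unadjusted p under 0.05 in edgeR, and 0 with DESeq2 or limma-voom). Their summed level was 17014 to 37396 CPM in LPS mice and 59752 to 67403 CPM in saline mice. P2ry12, a purinergic receptor of resting microglia, averaged 2419 ± 1024 CPM in LPS mice and 21585 ± 3362 CPM in saline mice (SD, n = 5 each). Cx3cr1, the reporter locus, averaged 1476 ± 667 CPM in LPS mice and 4134 ± 736 CPM in saline mice. Tmem119, also used to define microglia, averaged 899 CPM in LPS mice and 1058 CPM in saline mice and did not pass the test (edgeR, adjusted p = 0.302).

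The folding machinery rose broadly in LPS mice. Of the 40 genes, all tested, 25 rose, 0 fell and 15 did not pass (edgeR). Across all tested genes 22.4% were called higher and 22.5% lower. At an unadjusted p under 0.05, edgeR placed 1 of the 40 lower, Spcs3, and DESeq2 and limma-voom called 0 lower. The median log2 fold change over the 40 was 0.75, ranging from -0.45 to 2.09, and 34 were positive, whereas the median over all tested genes was 0.00. In 13 of the 40 every LPS mouse lay above every saline mouse, which held for 14.1% of all tested genes, and in 0 of the 40 did every LPS mouse lie below, against 15.7% of all tested genes. Summed over the 40 genes, the level was 24529, 20459.8, 22880.3, 13121 and 20622 CPM in LPS mice 1 to 5, against 12884, 12767, 11222, 11276 and 12387 CPM in saline mice 1 to 5. Every LPS mouse was above every saline mouse in this sum, and LPS mouse 4 was close to the saline mice. In sorted bulk samples, more of a cell type and more RNA per cell cannot be told apart.

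**Figure D1:**
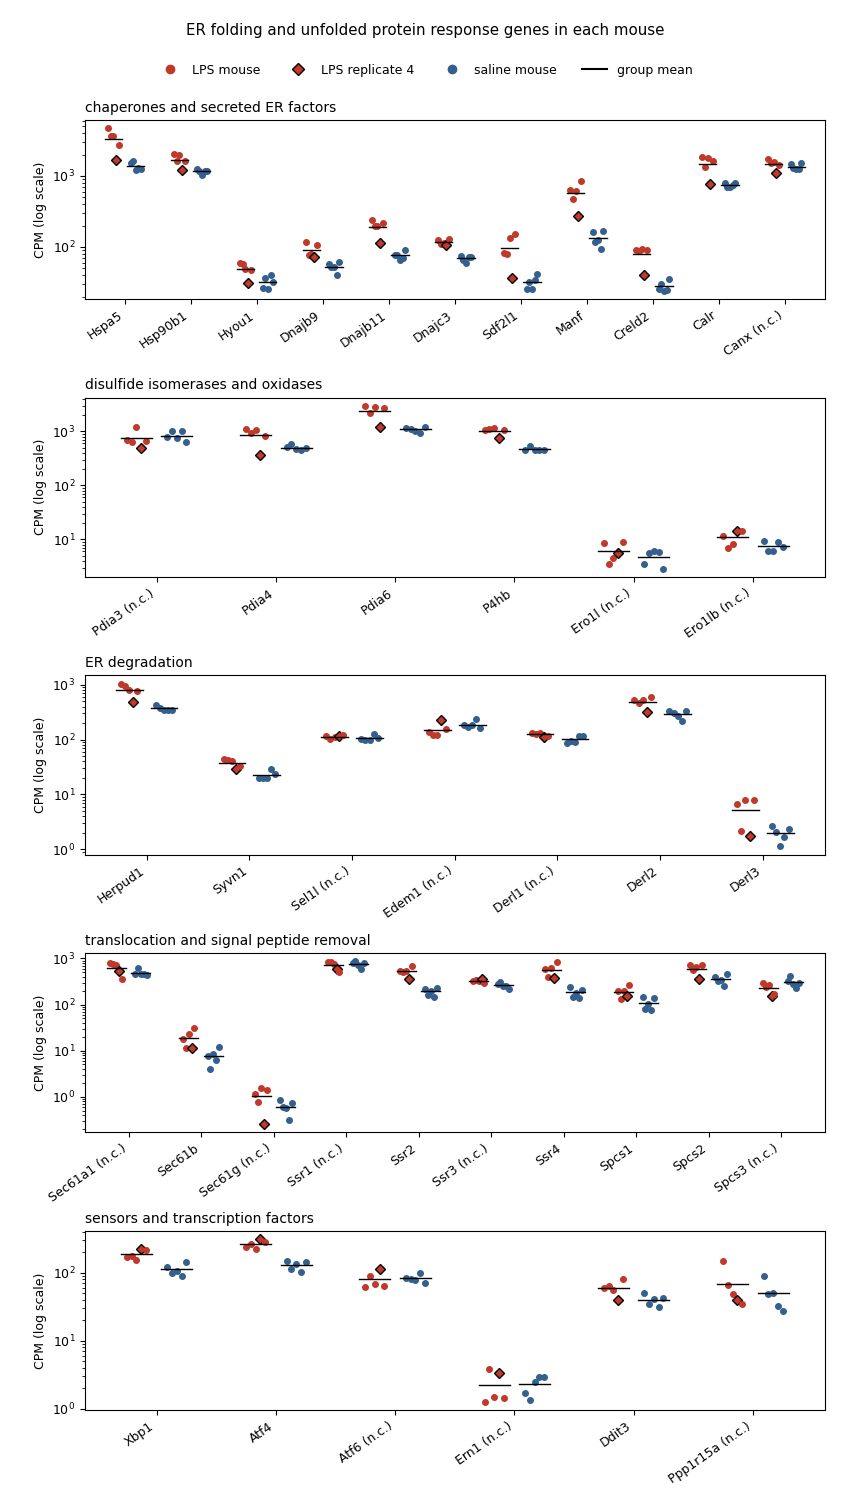
Each point is 1 mouse, with the level in CPM on a log scale for each of the 40 genes, in 5 panels by role. LPS mice are on the left of each pair and saline mice on the right, bars are group means (n = 5 each), diamonds mark LPS replicate 4, and n.c. marks the 15 genes that did not pass the test. In Hspa5, Creld2 and P4hb the diamond lies below the other LPS mice, and in Hspa5 and Creld2 it is nearer to the saline mice.

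Of the 11 chaperones and secreted ER factors 10 rose and 0 fell, with a median log2 fold change of 0.98. Manf, a secreted factor that binds Hspa5 in the ER, had 629.9, 478, 611, 269 and 838 CPM in LPS mice 1 to 5, against 163, 119, 124, 92.3 and 167 CPM in saline mice 1 to 5. The groups did not overlap, and LPS mouse 4 was the lowest of its group. Manf averaged 4.25-fold higher in LPS mice, a log2 fold change of 2.09 ± 0.32 (SE; edgeR, adjusted p = 2.75e-05), the highest fold of the 40. Exons of Manf overlap those of Rbm15b on the same strand in the annotation, so the split of reads between them is uncertain.

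Hspa5 (BiP, chr2:34772090-34776529) is the main Hsp70 of the ER lumen and holds the stress sensors inactive when it is free. It had 4706, 3684, 3603, 1661 and 2756 CPM in LPS mice 1 to 5, against 1498, 1609, 1211, 1302 and 1264 CPM in saline mice 1 to 5. LPS mouse 1 was highest, and LPS mouse 4 was only just above the highest saline mouse. The log2 fold change of Hspa5 was 1.25 ± 0.27 (SE), a fold of 2.38 (edgeR, adjusted p = 4.77e-04). The Hsp70 cofactors that carry J domains rose with it: Dnajb11 averaged 193 ± 47.5 CPM in LPS mice and 76.1 ± 8.94 CPM in saline mice, Dnajb9 averaged 90.4 ± 19.8 CPM in LPS mice and 52.7 ± 7.99 CPM in saline mice, and Dnajc3 averaged 116 ± 10.9 CPM in LPS mice and 69.3 ± 6.26 CPM in saline mice (SD, n = 5 each). In these 3 the groups did not overlap. Sdf2l1, a partner of Dnajb11, averaged 96.7 ± 46.4 CPM in LPS mice and 31.9 ± 6.43 CPM in saline mice, and its LPS mouse 4, at 36.8 CPM, lay below the highest saline mouse at 41.2 CPM.

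Creld2, a secreted ER stress protein, had 89.9, 88.5, 93.6, 40.3 and 91.1 CPM in LPS mice 1 to 5, against 25.8, 29.7, 23.9, 24.5 and 34.8 CPM in saline mice 1 to 5. Apart from LPS mouse 4 the LPS mice were within a few CPM of each other, and all LPS mice were above all saline mice. Hsp90b1 (GRP94), the Hsp90 of the ER, averaged 1701 ± 329.7 CPM in LPS mice and 1155 ± 75.7 CPM in saline mice. Hyou1, which exchanges the nucleotide on Hspa5, averaged 48.9 ± 11.4 CPM in LPS mice and 32.1 ± 6.51 CPM in saline mice. Both rose by less than the other chaperones that passed, with log2 fold changes of 0.56 and 0.60 (edgeR, adjusted p = 0.00801 for Hsp90b1 and 0.0184 for Hyou1), and Hyou1 missed the threshold without saline replicate 1 (edgeR, adjusted p = 0.0511).

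Of the lectin chaperones that hold glycoproteins, Calr (calreticulin), the soluble one, averaged 1478 ± 447 CPM in LPS mice and 749 ± 49.3 CPM in saline mice and rose by a log2 fold change of 0.98 (edgeR, adjusted p = 0.00137). Canx (calnexin), its membrane-bound relative, had 1756, 1540.0, 1562, 1086 and 1433 CPM in LPS mice 1 to 5, against 1459.8, 1287, 1241, 1233 and 1532 CPM in saline mice 1 to 5. The Canx values of the groups interleaved, and its log2 fold change was 0.13 ± 0.13 (SE; edgeR, adjusted p = 0.494). The difference between these fold changes was not tested.

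Sequences near the starts of these genes are shown because the same promoter element recurs in the chaperones. The ER stress response element (ERSE), to which NF-Y and Atf6 or Xbp1 bind, was searched as CCAAT followed by any 9 bases and CCACG, on both strands, in RefSeq windows of 250 bases before to 50 bases after each gene start (GRCm38.p6). Of the 40 genes 33 had a window. The element stood in 10 of these 33 (30.3%), and in 37 of all 27025 genes with a window (0.137%). The 40 genes were picked as members of this stress response, so the shares describe the list and carry no test. It stood in 7 of 9 chaperone windows when counted with ERSE-II, and in 0 of 7 translocation windows and 0 of 5 sensor windows. By outcome, 8 of 22 windows of genes that rose held an ERSE, as did 2 of 11 windows of genes that did not pass. The 11 ERSE sites found are written 5′ to 3′ on the strand of the element, with the 2 fixed ends in capitals.
Hspa5: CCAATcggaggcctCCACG
Hsp90b1, farther site: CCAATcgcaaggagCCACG
Hsp90b1, nearer site: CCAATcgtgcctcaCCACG
Dnajc3: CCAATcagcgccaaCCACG
Creld2: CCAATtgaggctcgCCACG
Calr: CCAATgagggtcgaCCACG
Canx: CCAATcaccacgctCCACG
Pdia6: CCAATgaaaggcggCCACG
Ero1lb: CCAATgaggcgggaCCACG
Syvn1: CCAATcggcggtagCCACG
Derl3: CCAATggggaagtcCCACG

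Canx and Ero1lb carry the element and did not pass the test, so its presence and the call did not coincide in every gene. The site of Hspa5 begins 65 bases before the gene start, and those of Syvn1 and Hsp90b1 begin 44 and, for the farther one, 212 bases before theirs. The 250 bases before the start of Hspa5 (chr2:34771840-34772089, plus strand, GRCm38.p6, RefSeq) are given to place it, with the ERSE in capitals.
Hspa5 promoter: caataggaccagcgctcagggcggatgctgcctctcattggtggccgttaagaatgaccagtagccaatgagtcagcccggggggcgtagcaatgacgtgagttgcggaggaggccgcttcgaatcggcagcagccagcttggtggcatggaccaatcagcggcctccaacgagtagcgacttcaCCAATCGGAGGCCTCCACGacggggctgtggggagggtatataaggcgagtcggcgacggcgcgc

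ERSE-II, searched as ATTGG, any 1 base and CCACG, stood in 2 of the 33 windows (6.06%), against 0.0444% of all genes.
Dnajb11: ATTGGcCCACG
Herpud1: ATTGGgCCACG
The XBP1 element core TGACGTGG stood in 0 of the 33 windows, against 0.714% of all genes. The C/EBP-ATF element, searched as TGATG, any 1 base and AA, through which Atf4 can act, stood in 1 window, that of Herpud1 (3.03%), against 4.51% of all genes. No 2 sites overlapped. A match is a string of letters and was not tested as a binding site.

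Among the disulfide isomerases and oxidases, 3 of 6 rose and 0 fell, with a median log2 fold change of 0.66. P4hb (protein disulfide isomerase, chr11:120560298-120573253), which makes and reshuffles disulfide bonds, had 1079, 1108, 1156, 742 and 1042 CPM in LPS mice 1 to 5, against 441, 529.7, 459.8, 453 and 459.8 CPM in saline mice 1 to 5. All LPS mice were above all saline mice, and LPS mouse 4 was the lowest of its group. Its log2 fold change was 1.13 ± 0.12 (SE; edgeR, adjusted p = 3.02e-05). Pdia6, a related isomerase, had 2959, 2215, 2809, 1202 and 2689.8 CPM in LPS mice 1 to 5, against 1149, 1086, 1010.0, 937 and 1224 CPM in saline mice 1 to 5. LPS mouse 4 lay just under the highest saline mouse, and the other LPS mice were well above. The log2 fold change of Pdia6 was 1.14 ± 0.25 (SE; edgeR, adjusted p = 5.80e-04). Pdia4, also an isomerase, averaged 856 ± 291 CPM in LPS mice and 499 ± 50.3 CPM in saline mice, with LPS mouse 4, at 367 CPM, below all saline mice (edgeR, adjusted p = 0.0134).

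Pdia3 (ERp57), the isomerase that works with calnexin and calreticulin on glycoproteins, had 701, 635, 1218, 488 and 649.9 CPM in LPS mice 1 to 5, against 782, 996, 738, 1013 and 621.05 CPM in saline mice 1 to 5. LPS mouse 3 was the highest of all and the groups overlapped, with a log2 fold change of -0.17 ± 0.26 (SE; edgeR, adjusted p = 0.554). The oxidases that recharge the isomerases were low. Ero1l had 8.37, 3.53, 4.50, 5.58 and 8.92 CPM in LPS mice 1 to 5, against 3.49, 5.69, 6.06, 5.74 and 2.85 CPM in saline mice 1 to 5. Ero1lb had 11.4, 6.76, 8.23, 13.9 and 14.4 CPM in LPS mice 1 to 5, against 9.22, 6.19, 5.98, 8.80 and 7.12 CPM in saline mice 1 to 5. In both genes the groups overlapped, and the log2 fold changes were 0.38 for Ero1l and 0.55 for Ero1lb (edgeR, adjusted p = 0.338 and 0.0759).

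Of the 7 genes of ER-associated degradation 4 rose and 0 fell, with a median log2 fold change of 0.76. Herpud1 (chr8:94386429-94395371), a scaffold of the degradation complex, had 1051, 946, 788, 477 and 763 CPM in LPS mice 1 to 5, against 431, 379, 351, 349 and 346 CPM in saline mice 1 to 5. All LPS mice were above all saline mice, with LPS mouse 4 nearest to them, and the log2 fold change was 1.12 ± 0.20 (SE; edgeR, adjusted p = 2.72e-04). Syvn1 (HRD1), the ubiquitin ligase of that complex, averaged 38.0 ± 6.31 CPM in LPS mice and 22.2 ± 3.84 CPM in saline mice, without overlap (edgeR, adjusted p = 0.00160). Its partner Sel1l, the adaptor that brings in substrates, had 115, 103, 113, 117 and 119.8 CPM in LPS mice 1 to 5, against 104, 97.9, 96.8, 127 and 108 CPM in saline mice 1 to 5. The highest Sel1l value belonged to saline mouse 4, and the log2 fold change was 0.09 ± 0.08 (SE; edgeR, adjusted p = 0.574).

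Edem1, which directs misfolded glycoproteins to degradation, had 137, 123, 123, 224 and 156 CPM in LPS mice 1 to 5, against 183, 171, 184, 237 and 162 CPM in saline mice 1 to 5. LPS mouse 4 was the only LPS mouse within the range of the saline mice, and the log2 fold change was -0.30 ± 0.19 (SE; edgeR, adjusted p = 0.185). Without LPS replicate 4 Edem1 was called lower, at a log2 fold change of -0.47 (edgeR, adjusted p = 0.0114). The derlins form part of the exit channel. Derl2 averaged 491 ± 104 CPM in LPS mice and 291 ± 46.1 CPM in saline mice and rose (edgeR, adjusted p = 0.00295). Derl1 had 130.0, 128, 134, 113 and 117 CPM in LPS mice 1 to 5, against 88.5, 94.9, 91.5, 115 and 115 CPM in saline mice 1 to 5. Only LPS mouse 4 fell within the Derl1 range of the saline mice, at a log2 fold change of 0.30 ± 0.09 (SE; edgeR, adjusted p = 0.0638), and without that mouse Derl1 passed (edgeR, adjusted p = 0.0399). Derl3, the derlin typical of secretory cells, averaged 5.32 ± 3.11 CPM in LPS mice and 1.98 ± 0.606 CPM in saline mice, rising by a log2 fold change of 1.41 (edgeR, adjusted p = 0.0172), and missed the threshold without LPS replicate 3 (adjusted p = 0.0508).

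In translocation and signal peptide removal 5 of 10 genes rose and 0 fell, with a median log2 fold change of 0.75. Differences between subunits of a complex were not tested. Of the translocon-associated protein complex, Ssr2 and Ssr4 rose, and Ssr1 and Ssr3 did not pass. Ssr2 (chr3:88579608-88588420) had 541, 499.6, 536, 358 and 676 CPM in LPS mice 1 to 5, against 223, 159.9, 196, 149.5 and 232 CPM in saline mice 1 to 5. Ssr4 (chrX:73787023-73790828) had 583, 401, 624, 376 and 839.8 CPM in LPS mice 1 to 5, against 242, 146, 180.3, 136 and 209 CPM in saline mice 1 to 5. In both, every LPS mouse was above every saline mouse, and LPS mouse 5 was highest and LPS mouse 4 lowest of their group. The log2 fold changes were 1.44 ± 0.19 for Ssr2 and 1.63 ± 0.26 for Ssr4 (SE; edgeR, adjusted p = 2.97e-05 and 7.34e-05). Ssr1 had 852, 852, 772, 579 and 499 CPM in LPS mice 1 to 5, against 810.2, 870.1, 729, 598 and 783 CPM in saline mice 1 to 5. LPS mice 4 and 5 were the lowest of all, and the log2 fold change was -0.09 ± 0.18 (SE; edgeR, adjusted p = 0.678). Ssr3 had 317, 335, 327, 358 and 292 CPM in LPS mice 1 to 5, against 286, 305, 249, 248 and 223 CPM in saline mice 1 to 5. LPS mouse 4 was here the highest, LPS mouse 5 lay within the saline range, and the log2 fold change was 0.31 ± 0.09 (SE; edgeR, adjusted p = 0.0590). Without LPS replicate 5 or without saline replicate 2 Ssr3 passed (edgeR, adjusted p = 0.0387 and 0.0428).

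In the Sec61 channel 1 of 3 subunits passed. Sec61b, a small subunit of the channel, averaged 18.9 ± 8.28 CPM in LPS mice and 7.76 ± 2.98 CPM in saline mice and rose (edgeR, adjusted p = 0.00502). Sec61a1, which forms the pore, had 786, 773, 708, 545 and 357 CPM in LPS mice 1 to 5, against 463, 628, 467, 453 and 445 CPM in saline mice 1 to 5. LPS mouse 5 lay below all saline mice, and the log2 fold change was 0.37 ± 0.23 (SE; edgeR, adjusted p = 0.145). Without LPS replicate 5 Sec61a1 passed, at a fold of 1.45 (edgeR, adjusted p = 0.0175). Sec61g was counted 4 to 20 times per LPS library and 5 to 13 times per saline library, with a log2 fold change of 0.74 ± 0.42 (SE; edgeR, adjusted p = 0.243). Its CPM was 1.17, 0.768, 1.55, 0.254 and 1.41 in LPS mice 1 to 5, against 0.856, 0.594, 0.566, 0.312 and 0.712 in saline mice 1 to 5, with LPS mouse 4 the lowest of all. With the length trend of each library removed, the log2 fold changes of the channel were 0.45 for Sec61a1, 0.56 for Sec61b and 0.49 for Sec61g, and none of the 3 passed (edgeR, adjusted p = 0.0721, 0.0548 and 0.449).

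Of the signal peptidase subunits, Spcs1 averaged 192 ± 52.9 CPM in LPS mice and 109 ± 32.0 CPM in saline mice, and Spcs2 averaged 601 ± 152 CPM in LPS mice and 355 ± 77.8 CPM in saline mice. Both rose, by log2 fold changes of 0.81 and 0.76 (edgeR, adjusted p = 0.00847 for Spcs1 and 0.00796 for Spcs2). Spcs3 had 301, 239, 268, 155 and 172 CPM in LPS mice 1 to 5, against 323, 413, 285, 226 and 299 CPM in saline mice 1 to 5. LPS mice 4 and 5 were below all saline mice, and the log2 fold change of -0.45 ± 0.23 (SE) was the lowest of the 40 (edgeR, adjusted p = 0.0852). It was called lower without LPS replicate 1 or without saline replicate 4 (edgeR, adjusted p = 0.0436 and 0.0486).

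Of the 6 sensors and transcription factors 3 rose and 0 fell, with a median log2 fold change of 0.51. The factors Atf4, Xbp1 and Ddit3 rose, while the sensors Atf6 and Ern1 and the phosphatase subunit Ppp1r15a did not pass. Atf4 (chr15:80255184-80257545), the factor whose translation rises when eIF2 is phosphorylated, had 237, 259.7, 219.8, 312 and 280.3 CPM in LPS mice 1 to 5, against 148, 111, 135, 103 and 141 CPM in saline mice 1 to 5. The groups did not overlap, and LPS mouse 4, the lowest for most chaperones, was the highest for Atf4. The log2 fold change was 1.03 ± 0.13 (SE; edgeR, adjusted p = 8.13e-05). Xbp1, spliced by Ern1 into an active factor, had 168, 174, 154, 221 and 217 CPM in LPS mice 1 to 5, against 122, 99.0, 107, 88.3 and 144 CPM in saline mice 1 to 5. Its groups did not overlap, LPS mouse 4 was again the highest, and the log2 fold change was 0.74 ± 0.16 (SE; edgeR, adjusted p = 0.00207). Ddit3 (CHOP), a factor downstream of Atf4, averaged 59.7 ± 14.9 CPM in LPS mice and 39.8 ± 7.38 CPM in saline mice (edgeR, adjusted p = 0.0184). It missed the threshold without LPS replicate 5 (edgeR, adjusted p = 0.0536), and its exons overlap those of Mars on the other strand.

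Atf6, the membrane-bound sensor that is cut into a factor, had 61.2, 89.6, 68.9, 115 and 64.5 CPM in LPS mice 1 to 5, against 82.9, 79.8, 77.1, 99.8 and 70.2 CPM in saline mice 1 to 5. LPS mouse 4 was highest and the groups interleaved, with a log2 fold change of -0.04 ± 0.19 (SE; edgeR, adjusted p = 0.869). Ern1 had 1.26, 3.76, 1.48, 3.36 and 1.41 CPM in LPS mice 1 to 5, against 1.71, 1.36, 2.42, 2.93 and 2.92 CPM in saline mice 1 to 5, from 15 to 53 counts per library. LPS mice 2 and 4 were the highest of all, and the log2 fold change was -0.01 ± 0.38 (SE; edgeR, adjusted p = 0.988). Ppp1r15a (GADD34), which directs the phosphatase that reverses eIF2 phosphorylation, had 147, 64.6, 49.0, 39.2 and 34.6 CPM in LPS mice 1 to 5, against 88.7, 48.7, 49.8, 32.4 and 27.6 CPM in saline mice 1 to 5. The first mouse of each group was its highest, and the log2 fold change of 0.44 ± 0.47 (SE; edgeR, adjusted p = 0.366) was -0.07 without LPS replicate 1.

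**Figure D2:**
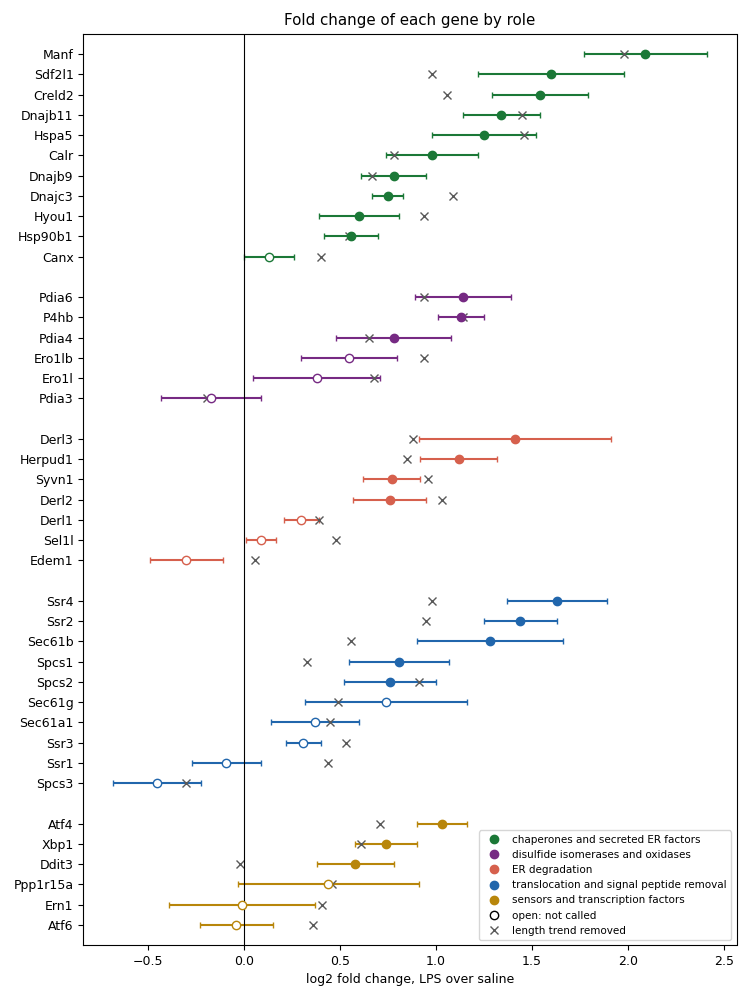
The log2 fold change of LPS over saline is plotted for each of the 40 genes by role. Bars are the SE from the variances of log2 CPM within each group. Filled points passed the test, open points did not, and crosses give the fold change with the length trend of each library removed. Manf is farthest to the right at 2.09 and Spcs3 farthest to the left at -0.45.

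Per unit of gene length, the machinery spanned a wide range of levels. In the authors' RPKM (reads scaled to gene length and library depth), Hspa5 was highest, at 1272 ± 448 RPKM in LPS mice and 521 ± 65.5 RPKM in saline mice. Pdia6 followed, at 1132 ± 345 RPKM in LPS mice and 504 ± 57.2 RPKM in saline mice. These neighbours did not differ beyond their spread. Calr had 771 ± 236 RPKM in LPS mice and 381 ± 23.7 RPKM in saline mice, and Hsp90b1 had 624 ± 124 RPKM in LPS mice and 414 ± 25.9 RPKM in saline mice. The order of their means differed between the groups, within or close to the spread of the mice. Within single mice, Hsp90b1 was above Calr in every saline mouse, and Calr was above Hsp90b1 in every LPS mouse but mouse 4. This order was not tested. Ssr4 had 711 ± 240.4 RPKM in LPS mice and 225 ± 54.9 RPKM in saline mice. Its mean stood between those of Calr and Hsp90b1 in LPS mice and below both in saline mice. In single mice it was below both in LPS mice 1 and 2, above both in LPS mice 4 and 5, and below both in every saline mouse. At the other end Ern1 had 0.572 ± 0.308 RPKM in LPS mice and 0.562 ± 0.175 RPKM in saline mice. Tested on log2(RPKM + 1) with limma, 27 of the 38 genes that passed a mean of 1 RPKM were higher, against 28.2% of all genes tested that way.

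**Figure D3:**
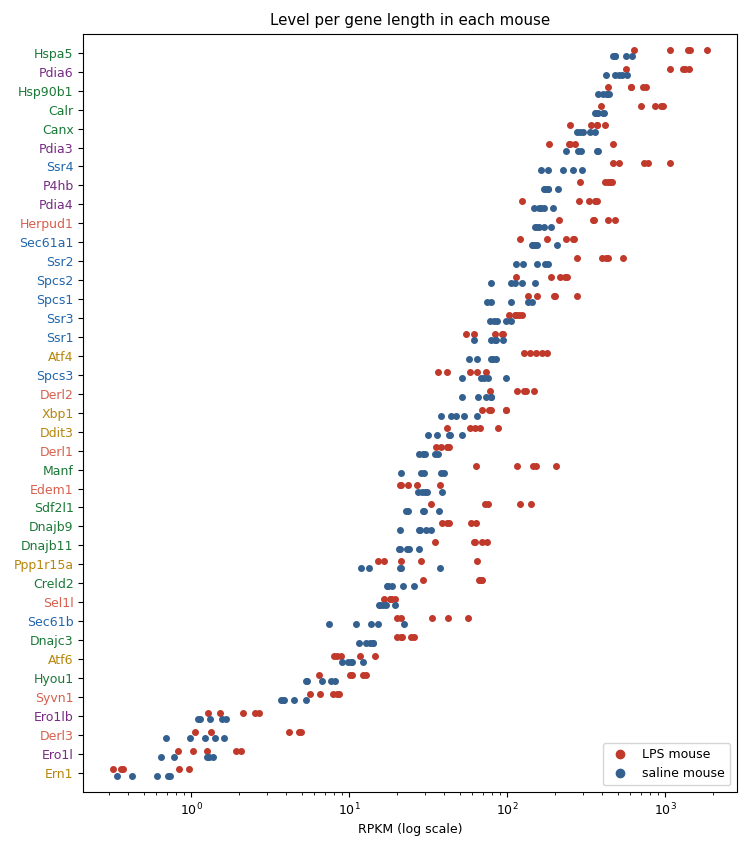
Each point is 1 mouse and gives the level in RPKM on a log scale, with the genes that have RPKM values ordered by their mean in saline mice, LPS mice above saline mice within a gene, and gene names coloured by role. The scale runs from Ern1, below 1 RPKM in all mice, to Hspa5, at 630.1 to 1830.3 RPKM in LPS mice and 465 to 616 RPKM in saline mice.

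The LPS mice differed among themselves in how far the machinery had risen, and LPS mouse 4 stood apart. It was the lowest LPS mouse in 22 of the 25 genes that rose (88.0%), against 41.4% of all 3093 genes called higher. Over the 25 genes its median deviation from the mean of the LPS mice was -0.63 on the log2 CPM scale, against -0.21 over all genes called higher. In 11 of the 25 it was at or below the highest saline mouse, which held for 20.8% of all genes called higher. The exceptions were Xbp1 and Atf4, where it was the highest LPS mouse, and Spcs1, where LPS mouse 2 was lowest. LPS mouse 1 was highest in 11 of the 25 and LPS mouse 5 in 10. Since the calls used these same LPS values, the ranks describe the mice and carry no test.

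By role the summed levels placed LPS mouse 4 differently. Chaperones summed to 11686, 9268, 10230.2, 5395 and 9061 CPM in LPS mice 1 to 5, against 5438, 5189, 4552, 4819 and 5275 CPM in saline mice 1 to 5. LPS mouse 4 lay between saline mice there, and in the disulfide group its 2818 CPM also lay within the saline range of 2683 to 3203 CPM. In the translocation group its 2890.2 CPM lay within the saline range of 2147 to 2933 CPM. In the ER degradation group its 1287 CPM was above all saline mice, of which the highest had 1163 CPM. Sensors and transcription factors summed to 674, 654, 548, 730.1 and 679 CPM in LPS mice 1 to 5, against 494, 374, 412, 358 and 427 CPM in saline mice 1 to 5, so that LPS mouse 4 was there the highest of all. The same mouse had the lowest P2ry12 of the 10 mice, at 1367 CPM, and the lowest sum of microglia markers, at 17014 CPM. LPS mouse 5 came next on both, at 1529 CPM and 21655 CPM, and was the highest LPS mouse in 10 of the 25 genes. A link between marker level and the folding genes was not tested. The SD of log2 CPM was larger in LPS mice than in saline mice for 22 of the 25 genes (88.0%), against 66.1% of all genes called higher. Over the 25 genes the median SD was 0.42 in LPS mice and 0.23 in saline mice. LPS mouse 4 enters these values, and the spread without it was not computed. Without LPS replicate 4, 26 of the 40 were called higher and 1 lower, against 25.5% and 25.2% of all genes tested in that fit. The 4 other LPS mice lay above all saline mice in 23 of the 40, against 20.0% of all tested genes.

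**Figure D4:**
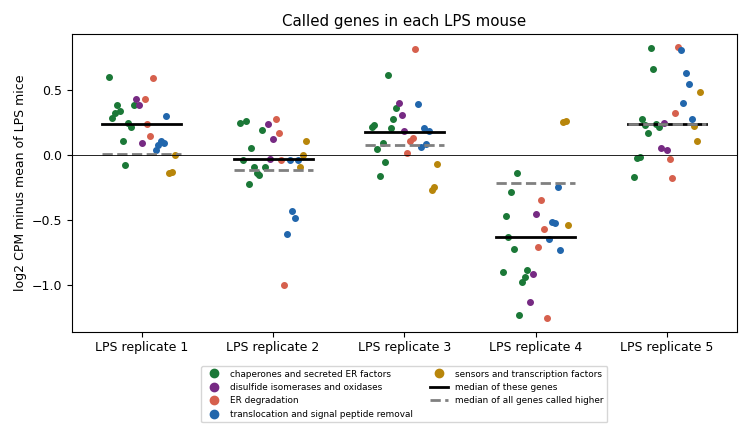
For each LPS mouse, each point is 1 of the 25 genes that rose, as its log2 CPM minus the mean of the LPS mice. The solid bar is the median of these genes and the dashed bar the median of all 3093 genes called higher, which for LPS replicate 4 lie at -0.63 and -0.21.

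Gene length moved with the fold change, over all genes and over these 40. Tested genes were cut by exon length into 5 classes of like size. Of the 8 folding genes in the shortest class 8 rose, and of the 6 in the longest class (Ero1lb, Sel1l, Edem1, Ssr1, Atf6 and Ern1) 0 rose. Over all genes 40.4% of the shortest class and 7.91% of the longest class were called higher. The median log2 fold change was 1.43 for the 8 short genes and -0.02 for the 6 long ones, against 0.73 and -0.41 for all genes of those classes. Across the 40 genes Spearman's rho between exon length and log2 fold change was -0.68, as a description over genes that share the same 10 libraries. The share of counts in the shortest class averaged 18.8% ± 2.94 in LPS mice and 12.2% ± 1.94 in saline mice (SD, n = 5 each), with no overlap (exact two-sided permutation test, p = 0.00794, the smallest that 5 against 5 allows).

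With the length trend of each library removed, 26 of the 40 were higher and 0 lower, against 20.1% of all genes higher and 19.1% lower in that fit, and the median log2 fold change was 0.67, against 0.04 over all genes. Different genes made up the count. Derl3, Sec61b, Spcs1 and Ddit3 no longer passed, and Ero1lb, Sel1l, Derl1, Ssr3 and Atf6 did. The fold change of Ddit3 was then -0.02 on the log2 scale (edgeR, adjusted p = 0.891). That of Atf6 was 0.36 (edgeR, adjusted p = 0.0347). Manf stood at 1.98, Hspa5 at 1.46 and P4hb at 1.14, and all of these passed.

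**Figure D5:**
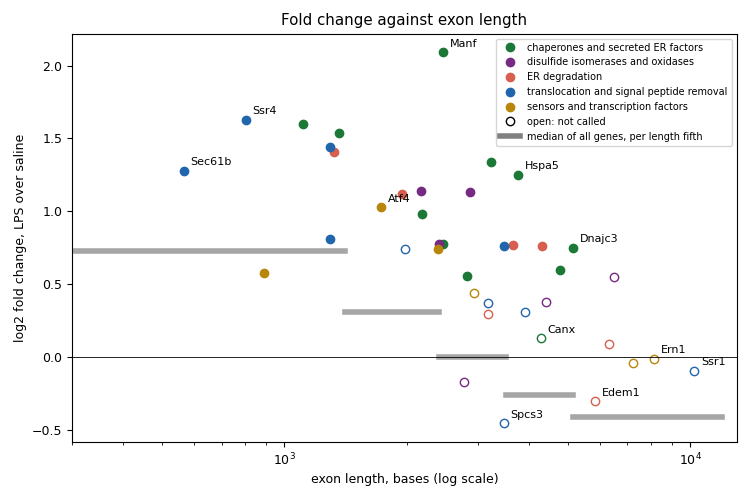
The log2 fold change of LPS over saline is plotted against exon length in bases on a log scale, with 1 point per gene coloured by role, open where the gene did not pass. Grey bars are the medians of all tested genes in each of the 5 length classes, from 0.73 for the shortest to -0.41 for the longest. The 8 genes in the shortest class are all filled and the 6 in the longest class all open.

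Wider lists of the same pathway, 135 genes found of 136 listed, moved less uniformly. Of 129 tested, 49 rose (38.0%) and 19 fell (14.7%), with a median log2 fold change of 0.24. Across all tested genes 22.4% were called higher and 22.5% lower. With the length trend removed 46 were higher and 11 lower, against 20.1% and 19.1% of all genes in that fit. Of 17 other chaperones and prolyl isomerases 9 rose (52.9%) and 5 fell (29.4%). Serp1, which stabilises proteins at the translocon, averaged 150.3 ± 36.8 CPM in LPS mice and 60.7 ± 8.70 CPM in saline mice. Ppib, a prolyl isomerase of the ER, averaged 265 ± 82.6 CPM in LPS mice and 105 ± 23.3 CPM in saline mice. Sdf2, a relative of Sdf2l1, averaged 210.2 ± 43.2 CPM in LPS mice and 118 ± 14.7 CPM in saline mice. In these 3 the groups did not overlap (edgeR, adjusted p = 5.01e-05, 2.54e-04 and 6.74e-04). Of 14 other disulfide isomerases 7 rose and 2 fell. Erp44, which retains unassembled cargo, rose by a log2 fold change of 1.12 and Txndc5 by 0.73, while Tmx3, a membrane-bound isomerase, changed by -0.69 (edgeR, adjusted p = 1.30e-04, 0.00112 and 8.98e-04). With the length trend removed Tmx3 did not pass, and 0 genes of this list were lower.

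Of 17 other translocation and targeting genes 7 rose (41.2%) and 0 fell, against 22.4% higher and 22.5% lower over all tested genes. The number lower was 0 also at an unadjusted p under 0.05 in edgeR, and 0 with DESeq2 or limma-voom. Sec11a, a catalytic subunit of the signal peptidase, averaged 476 ± 92.5 CPM in LPS mice and 213 ± 33.1 CPM in saline mice (edgeR, adjusted p = 6.38e-05). Tmed10, a cargo receptor, and Srp19, a part of the signal recognition particle, rose by log2 fold changes of 0.78 and 0.94 (edgeR, adjusted p = 8.74e-04 and 9.17e-04). With the length trend removed Srp19 did not pass. Of 22 genes of N-glycosylation and glycoprotein folding 11 rose and 2 fell. Mogs and Prkcsh, which act in glucose trimming, rose by log2 fold changes of 1.05 and 1.09, and Krtcap2, of the oligosaccharyltransferase, by 1.38 (edgeR, adjusted p = 1.68e-04, 2.94e-04 and 4.17e-04).

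Of 23 other ER degradation genes 8 rose and 3 fell, and ubiquitin-conjugating enzymes moved in opposite directions. The conjugating enzyme Ube2j1 averaged 61.0 ± 6.70 CPM in LPS mice and 126 ± 13.4 CPM in saline mice. Ube2g2, also a conjugating enzyme of this pathway, averaged 156 ± 16.0 CPM in LPS mice and 80.5 ± 7.45 CPM in saline mice. In both the groups did not overlap (edgeR, adjusted p = 2.59e-05 for Ube2j1 and 4.26e-05 for Ube2g2). The count of 8 was 5 with mouse-number ranges in the fit and 4 to 8 when 1 mouse was left out. The list is therefore not read as raised.

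Of 17 other sensors and factors 4 rose (23.5%) and 3 fell (17.6%), near the 22.4% and 22.5% of all tested genes. Mbtps1, the protease that makes the first cut in Atf6, averaged 40.3 ± 8.45 CPM in LPS mice and 82.6 ± 12.9 CPM in saline mice, without overlap (edgeR, adjusted p = 1.64e-04). Mbtps2, which makes the next cut and is named here after its values were seen, averaged 14.9 ± 2.92 CPM in LPS mice and 28.2 ± 3.50 CPM in saline mice (edgeR, adjusted p = 5.76e-04). Eif2s1, the subunit of eIF2 that is phosphorylated, and Creb3, a membrane-bound factor related to Atf6, rose by log2 fold changes of 0.94 and 0.77 (edgeR, adjusted p = 4.23e-04 and 4.83e-04). In the coat that carries cargo out of the ER, 3 of 19 genes rose (15.8%) and 4 fell (21.1%), neither above the share over all tested genes. Sec23a, of the inner coat, averaged 15.2 ± 2.22 CPM in LPS mice and 44.8 ± 8.29 CPM in saline mice (edgeR, adjusted p = 5.73e-06), and Sec31a, of the outer coat, averaged 79.8 ± 3.08 CPM in LPS mice and 119 ± 17.2 CPM in saline mice (edgeR, adjusted p = 0.00215). Preb, which loads the coat GTPase, averaged 122 ± 19.1 CPM in LPS mice and 78.4 ± 7.89 CPM in saline mice (edgeR, adjusted p = 0.00184).

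Markers of several other cell types moved with LPS, and their part in the rise of the folding genes was not tested. Of 10 monocyte markers 6 were tested, of which 3 rose and 2 fell, and their summed level was 78.1 to 219.9 CPM in LPS mice and 14.4 to 22.8 CPM in saline mice. Neutrophil markers summed to 2.01 to 32.4 CPM in LPS mice and 0.162 to 1.12 CPM in saline mice, and 1 of 10 was tested and rose, with Mpo and Elane at 0 in all 10 libraries. Of 8 border macrophage markers 5 were tested and 4 rose, and the sum was 808 to 2079.8 CPM in LPS mice and 614 to 893 CPM in saline mice. Markers of B and plasma cells, which are rich in ER chaperones, summed to 83.3 to 164 CPM in LPS mice and 136 to 182 CPM in saline mice, and 2 of the 3 tested fell. The plasma cell genes Mzb1 and Pou2af1 were at 0 in all 10 libraries, where a count of 0 allows up to 0.187 to 0.254 CPM per library. Endothelial markers, which also fell in 2 of 2 tested, summed to 6.50 to 12.2 CPM in LPS mice and 53.1 to 78.9 CPM in saline mice. Astrocyte markers summed to 148 to 368 CPM in LPS mice and 371 to 433 CPM in saline mice, without overlap. Of 5 tested 1 fell and 0 rose, with log2 fold changes from -0.85 to 1.54. DESeq2 and limma-voom each called 1 higher and 1 lower. Of 5 oligodendrocyte markers and 1 neuron marker tested, 0 were called, and 0 of 8 T and NK cell markers were tested.

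The mouse numbers in the labels fall into 3 ranges. Over all 40 genes the LPS mean was above the saline mean in 36 in the range with 2 LPS and 2 saline mice, in 36 in that with 1 LPS and 2 saline mice, and in 33 in that with 2 LPS and 1 saline mice, which holds LPS mouse 4. The median log2 differences over the 40 were 0.67, 0.83 and 0.51 in that order, against -0.02, -0.03 and 0.00 over all tested genes. With the ranges as a term in the fit 25 of the 40 were called higher, against 20.3% of all tested genes. What a range stands for is not given in the labels.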

How the data were processed

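RNA from microglia of 5 LPS and 5 saline mice was sequenced, 1 library per mouse; the SMARTer kit amplified 5 ng of RNA and the Ovation kit took 6 ng of product, per the labels' protocols. The deposited count table holds raw counts per gene, made by the authors with featureCounts on GRCm38/mm10 per the submitters' processing notes. The deposited RPKM tables hold the authors' normalised values for expressed genes; the names of those tables carry the word CRAC, the name of a read mapper, while the mapper behind the counts, versions, strand setting and RPKM scaling were not given in the sources used here. Exons of 12 of the 40 genes overlap another gene, so their counts are uncertain to that extent. In all, 1 count row without a gene name was left out.

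Counts were filtered (filterByExpr), TMM scaled and tested with edgeR 4.0.16 (R 4.3.3), adjusted by Benjamini-Hochberg over 13793 genes at 0.05. RPKM of at least 1 on average was tested with limma 3.58.1 on log2(RPKM + 1), where folds of low genes are understated. Standard errors of the log2 fold change were taken from the variances of log2 CPM within each group, not from the edgeR fit. The length trend was removed by a lowess of log2 CPM on exon length per library, as an offset. Alternatives were other scalings and filters, DESeq2 1.42.0, limma-voom, protein-coding genes only, mouse-number ranges as a term, and leaving out each mouse. No 2 libraries of the same group agreed within sampling noise. Limits from a count of 0 cover counting error only.

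The members and lists were chosen with earlier results of these data known. In each role, values per mouse are given for the gene that rose with the smallest adjusted p, that with the highest RPKM and those not called; the other genes are given by means. In Creld2, Xbp1 and Mbtps2 more is given after their values were seen. In each wider list the 3 called genes with the smallest adjusted p are named, except that 1 in the ER degradation list is not reported here. Protein sequences were not used here.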

Additional observations from a re-analysis of the deposited data

Results flagged for a closer look

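Of 80 groups of 5 mice (40 genes in 2 groups), 5 held a mouse far from the other 4 by Dixon's ratio, where chance alone marks about 1 group in 20. In LPS mice, replicate 4 had 40.3 CPM of Creld2, against 88.5 to 93.6 CPM in the other LPS mice, and 742 CPM of P4hb, against 1042 to 1156 CPM. LPS replicate 1 had 147 CPM of Ppp1r15a, against 34.6 to 64.6 CPM in the other LPS mice. In saline mice, replicate 2 had 529.7 CPM of P4hb, against 441 to 459.8 CPM in the other saline mice, and 628 CPM of Sec61a1, against 445 to 467 CPM.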

How the results depend on the processing

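The number of the 40 genes called higher was 24 to 28 over all settings tried. Of 914 gene values under other settings 858 kept their direction and side of the threshold, 7 were weaker, 27 stronger and 22 reversed, and the cause was not tested. The number called lower, 0, was 1 with library size only as the scaling (Spcs3, log2 fold change -0.53, adjusted p = 0.0338 in edgeR) and 0 to 1 when 1 mouse was left out. That scaling moved the median of all genes to -0.08 and the share of calls that were higher to 43.3%, from 49.9%. The 8 wider ER degradation genes called higher were 4 with library size only, 5 with no filter, 5 with mouse-number ranges, and 4 to 8 with 1 mouse left out. The 3 ER export coat genes called higher were 2 to 5 with 1 mouse left out, and 5 without LPS replicate 4. Some fold changes changed sign: Sel1l was -0.00 with library size only, and with the length trend removed Edem1 was 0.06, Ssr1 0.44, Atf6 0.36, Ern1 0.41 and Ddit3 -0.02, where Atf6 passed (adjusted p = 0.0347 in edgeR) and Ddit3 lost its call. Ern1 was 0.02 with RLE scaling, with DESeq2 and with protein-coding genes only, and 0.01 with the CPM filter. With 1 mouse left out, Ssr1 ranged from -0.18 to 0.02, Atf6 from -0.20 to 0.05, Ern1 from -0.26 to 0.15 and Ppp1r15a from -0.07 to 0.75. Derl3 also missed the threshold in limma-voom (adjusted p = 0.0863). No paired analysis was possible because the labels give no replicate number that LPS and saline mice share. Sec61g and Ern1 had few counts, and how far depth limits their values was not tested. A higher level in sorted cells does not separate more RNA per cell from a changed mix of cells, and protein levels and the activity of the sensors were not measured.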
